A study of Rattus norvegicus with 6 samples.

Results

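The genes of the creatine kinase system were examined in polyA-selected mRNA of rat cortical neural progenitors. Of the 8 symbols on the list, 7 have a row among the 17337 gene names of the deposited tables: *Ckb*, *Ckm*, *Ckmt1b*, *Ckmt2*, *Gatm*, *Gamt* and *Slc6a8*. *Ckmt1* has no row of its own. In the RefSeq gene list for GRCr8, *Ckmt1b* is an older name of *Ckmt1*, so both symbols were counted as 1 gene. The genes were chosen by function together with the measured FPKM of these same libraries, in which *Ckb* was already known to be among the most abundant mRNAs, so their levels are a description and were not tested.

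The cells came from cortices of Sprague Dawley rat embryos at day 14, were grown with 20 ng/ml bFGF and 20 ng/ml EGF, and were collected after the second passage without any other treatment. The RNA of 2 cultures, called replicate A and replicate B, was sequenced in duplicate, which gives the technical libraries A1 and A2 and the technical libraries B1 and B2. This grouping follows the sample titles, and every mean ± SD rests on it. Library names elsewhere in the study could be read as another grouping. All 4 libraries are of 1 condition, and n = 2 wherever a mean ± SD is given, with the technical libraries averaged first. Markers of more than 1 cell type were present, as given with the replicate comparison. Start-seq data of the study (2 samples) are not analysed here.

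Creatine kinases pass a phosphate between ATP and creatine, so that phosphocreatine buffers and carries energy within a cell. The brain-type cytosolic subunit is encoded by *Ckb* and the muscle-type subunit by *Ckm*, while the ubiquitous and the sarcomeric mitochondrial enzymes are encoded by *Ckmt1b* and *Ckmt2*. Creatine is made in consecutive steps: *Gatm* encodes the enzyme that joins arginine and glycine into guanidinoacetate, and *Gamt* encodes the methyltransferase that turns guanidinoacetate into creatine. *Slc6a8* encodes the transporter that brings creatine into the cell. In the brain, the synthesis enzymes and the transporter are often found in different cells.

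The DNA before the start sites of 3 of the genes is shown because they carry the main contrasts in level: *Ckb* is the most abundant member, *Ckm* is its cytosolic relative at a low level, and *Gatm* is the only member counted as differing between the replicates. Each sequence is the 250 bases before the annotated start, from RefSeq on the GRCr8 build, and capitals mark every match, on either strand, to any of 4 short motifs. The TATA box was searched as TATAAA. The others were the CCAAT box by its own letters, the E-box as CANNTG, and the GC box as GGGCGG. No matches of different motifs overlap in the windows shown. The regions are chr6:136553465-136553714 on the minus strand for *Ckb*, chr1:88189211-88189460 on the plus strand for *Ckm* and chr3:130129094-130129343 on the minus strand for *Gatm*.
Ckb: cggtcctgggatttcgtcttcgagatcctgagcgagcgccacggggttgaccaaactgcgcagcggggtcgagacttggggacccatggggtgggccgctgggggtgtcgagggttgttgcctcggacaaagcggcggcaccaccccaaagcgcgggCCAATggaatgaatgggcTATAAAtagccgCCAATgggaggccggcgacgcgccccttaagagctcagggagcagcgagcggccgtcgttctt
Ckm: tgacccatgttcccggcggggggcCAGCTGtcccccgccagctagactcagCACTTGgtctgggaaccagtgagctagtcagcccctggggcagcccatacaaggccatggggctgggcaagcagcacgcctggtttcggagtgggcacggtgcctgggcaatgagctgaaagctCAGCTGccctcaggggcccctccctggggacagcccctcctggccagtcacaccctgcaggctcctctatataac
Gatm: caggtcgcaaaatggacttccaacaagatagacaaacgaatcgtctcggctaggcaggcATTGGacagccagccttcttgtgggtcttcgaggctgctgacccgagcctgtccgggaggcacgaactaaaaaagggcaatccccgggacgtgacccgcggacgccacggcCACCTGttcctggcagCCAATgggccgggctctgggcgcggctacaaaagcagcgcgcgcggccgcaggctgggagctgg

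The *Ckb* window holds 1 TATAAA, which begins 75 bases before the start, between CCAAT boxes that begin 93 and 63 bases before it. The *Ckm* window holds neither of these but has 3 matches to the E-box, the motif that MyoD-type muscle factors and other bHLH proteins bind. The *Gatm* window has 2 CCAAT boxes, 1 of them on the opposite strand, and 1 E-box. Sequences of all 7 genes were found, and *Ckb* is the only one of them with TATAAA in this window. Only these exact letters were searched. Related letters, such as the tatataa near the end of the *Ckm* window, were not counted. Lack of a TATA box is therefore not shown for the other genes. TATAAA was present in 12.9% of the 33469 windows of the same length before RefSeq genes, CCAAT in 34.0%, the E-box in 65.5% and the GC box in 30.5%. *Gamt* stands apart by 4 GC boxes and no match to the other motifs. These matches describe the letters of the windows, and binding was not measured. All distances are from the RefSeq start. By Start-seq the paper placed the start of many rat genes elsewhere, and those positions were not used here.

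Levels are in FPKM, the number of fragments scaled to transcript length and library depth, which allows levels of different genes to be set side by side. In rn6, the build of the tables, *Ckb* spans chr6:136142956-136145838 (minus strand). *Ckb* reached 2914 and 3158 FPKM in A1 and A2, and 5155 and 2675 FPKM in B1 and B2. One library, B1, was high, and the other three lay close together, so the libraries of replicate B enclosed those of replicate A. The mean was 3475 ± 622 FPKM (SD, n = 2), which ranked 4 among all gene names. In the single libraries *Ckb* ranked 5, 6, 3 and 11 in A1, A2, B1 and B2. Its transcripts made up 0.511%, 0.525%, 0.842% and 0.445% of the TPM of these libraries, where TPM is a level that sums to 1000000 in each library.

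The other creatine kinases were below 1 FPKM in every library, with *Ckmt1b* at rank 10982 and *Ckm* at rank 11887. *Ckmt1b*, at chr3:113319456-113324457 (plus strand), had 0.606, 0.764, 0.704 and 0.309 FPKM in A1, A2, B1 and B2, a mean of 0.596 ± 0.126 (SD, n = 2). The muscle subunit *Ckm*, at chr1:80321585-80331841 (plus strand), had 0.282, 0.368, 0.145 and 0.0424 FPKM, a mean of 0.209 ± 0.163 (SD, n = 2). *Ckmt2*, at chr2:21422680-21452797 (minus strand), is listed at 0 in all 4 libraries. *Ckb* therefore made up between 99.96% and 99.99% of the summed FPKM of the 4 creatine kinase genes in every library. The low values rest on few reads: the mean read depth over *Ckm* was 8.35 in A2 and 0.290 in B2, the shallowest library. The level of *Ckm* is given beside 11 listed markers of skeletal and cardiac muscle, whose summed FPKM was 4.54 and 3.20 in A1 and A2 and 5.04 and 12.3 in B1 and B2. The high sums in B are those of *Tnnt2*. Without it the other 10 summed to 3.99, 2.74, 1.65 and 0.989 FPKM in A1, A2, B1 and B2. Of this, *Myh6* made up 2.95, 1.73, 0.877 and 0.418 FPKM. Without both genes, the other 9 summed to 1.04, 1.01, 0.773 and 0.571 FPKM. Of the 10 markers beside *Tnnt2*, 5 overlapped between the replicates, among them *Des* with a positive log2 difference. A fall like that of *Ckm* is therefore not shown across these markers. Among them, *Tnni1* was at 0 in all libraries, *Myod1* was above 0 only in A2, at 0.0136 FPKM, and *Myog* was above 0 in A1 and A2 only, at 0.0254 and 0.0346 FPKM. *Acta1*, *Actc1* and *Myh7* were above 0 in every library, between 0.0461 and 0.496 FPKM, a range that overlaps that of *Ckm*, and the part of muscle cells in the level of *Ckm* was not tested. Only *Myh6* and *Tnnt2* averaged 1 FPKM or more, and by the rule given with the replicate comparison *Myh6* was lower and *Tnnt2* higher in B.

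**Figure D1:**
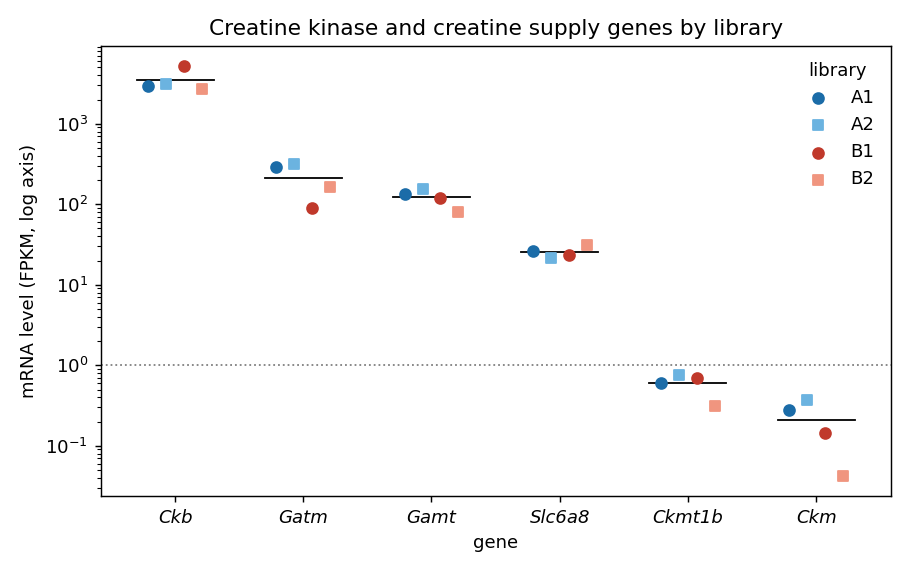
FPKM of each creatine gene on a log axis in the libraries A1, A2 (blue), B1 and B2 (red), with a black line at the mean of the 2 biological replicates and a dotted line at 1 FPKM. *Ckb* stands near 3475 FPKM, the supply genes *Gatm*, *Gamt* and *Slc6a8* between 21.3 and 312 FPKM, and *Ckmt1b* and *Ckm* below 1 FPKM. *Ckmt2*, listed at 0, is not drawn.

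Both enzymes of creatine synthesis were expressed. *Gatm*, at chr3:114711570-114728155 (minus strand), had 292 and 312 FPKM in A1 and A2 and 88.8 and 165 FPKM in B1 and B2. Both libraries of replicate B were below both of replicate A. The mean was 215 ± 124 FPKM (SD, n = 2), rank 444. *Gamt*, at chr7:12314848-12317998 (plus strand), had 133 and 153 FPKM in A1 and A2 and 119 and 81.0 FPKM in B1 and B2, again without overlap, with a mean of 122 ± 30.4 (SD, n = 2) and rank 873. The ratio of *Gatm* to *Gamt*, the first over the second step of the pathway, was 2.20 in A1, 2.04 in A2 and 2.04 in B2. In B1 it was 0.743, the only library in which *Gamt* was the higher of the pair.

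The creatine transporter *Slc6a8*, at chrX:157129988-157139291 (minus strand), had the smallest SD relative to its mean among the 4 expressed members. It had 26.0 and 21.3 FPKM in A1 and A2 and 23.5 and 31.2 FPKM in B1 and B2, so the replicates overlapped. The mean was 25.5 ± 2.62 FPKM (SD, n = 2), rank 3991.

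By mean FPKM the order was *Ckb*, *Gatm*, *Gamt*, *Slc6a8*, *Ckmt1b* and *Ckm*, with *Ckmt2* last. *Ckb* was 16.2 times the mean of *Gatm*, with a ratio of 9.97 in A1, 10.1 in A2, 16.2 in B2 and a far higher 58.1 in B1, and every library of *Ckb* was above every library of *Gatm*. *Gamt* was 4.78 times *Slc6a8* and *Slc6a8* was 42.7 times *Ckmt1b*, both again without overlap of libraries. *Gatm* was above *Gamt* in 3 of the 4 libraries, all but B1. Its mean was also higher in each replicate, at 302 against 143 FPKM in A and 127 against 100 FPKM in B. Across libraries and replicates the values of these genes overlapped. *Ckmt1b* was above *Ckm* in each of the 4 libraries, although the lowest value of *Ckmt1b* was below the highest of *Ckm*. Of the 7 genes, 4 had a mean of at least 1 FPKM, and the same 4 were at 1 FPKM or more in every library.

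For the comparison of A with B, values were put on the log2(FPKM + 1) scale, where changes of low genes come out too small. A gene was counted as differing if its mean was at least 1 FPKM, the replicates were at least 1 apart on this scale, and their libraries did not overlap. No test is possible between 2 replicates of 1 condition. Over the 10481 genes that reached this mean, 6.15% were counted as differing, 1.57% as lower in B and 4.58% as higher in B. Of the 4 creatine genes at this level, 1 was counted, *Gatm*, which was lower in B by a log2 difference of -1.31. The means of 302 FPKM in A and 127 FPKM in B are 2.38-fold apart. This call rests on B1: without that library the log2 difference was -0.87 and no creatine gene was counted, whereas without B2 it was -1.75.

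*Gamt* was also lower in replicate B, by a log2 difference of -0.53, below the size required. It was -0.81 without B1 and -0.26 without B2. Lack of overlap alone was found for 32.0% of the genes tested in this direction and for 28.1% in the other. *Ckb* differed by 0.29 and *Slc6a8* by 0.20, with overlapping libraries, and the sign of each depended on a single library. Without B1 the difference of *Ckb* was -0.18, and without B2 that of *Slc6a8* was -0.0019. *Ckmt1b* and *Ckm* were below the level required.

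**Figure D2:**
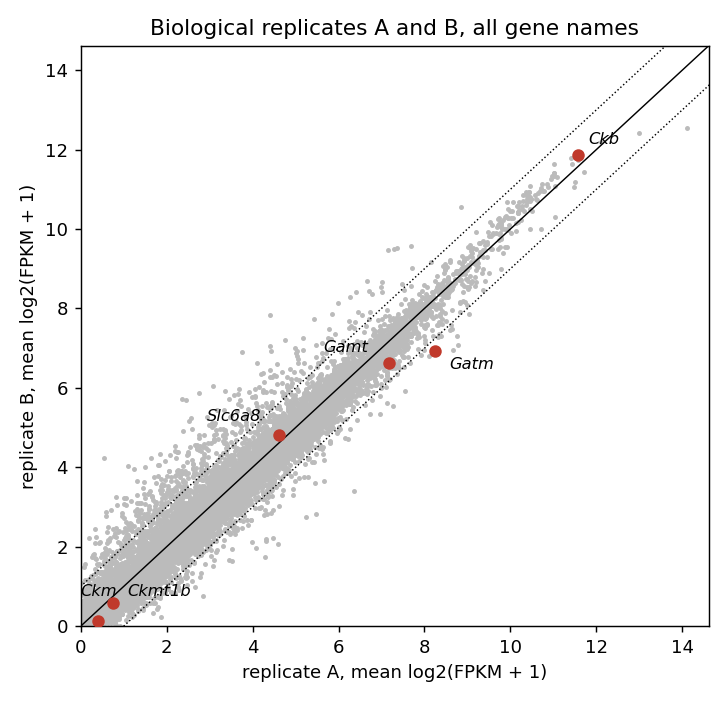
Level of every gene name in replicate A (horizontal) against replicate B (vertical), each as the mean of log2(FPKM + 1) over its technical libraries, with creatine genes in red. The solid line marks equal levels and the dotted lines a difference of 1. *Gatm* lies beyond the lower dotted line, and *Ckb*, *Gamt* and *Slc6a8* lie between the lines.

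The spread between technical libraries differed between the replicates. A1 and A2 were within 0.28 of each other on the log2 scale for all 7 creatine genes. B1 and B2 were further apart: the log2 difference B2 minus B1 was -0.95 for *Ckb*, a 1.93-fold ratio, and 0.89 for *Gatm*, a 1.86-fold ratio in the other direction. For *Ckb* this technical gap was larger than the difference between the biological replicates. A gap of at least 0.58 between B1 and B2 was found for 13.0% of the genes tested and for 10.2% of the 1064 genes averaging 100 FPKM or more, against 1.59% and 1.60% between A1 and A2. Only 34 other genes of these 1064 were at least as far apart between B1 and B2 as *Ckb*, and 45 others were as far apart as *Gatm*. B2 was the shallowest library, with a coverage of 6.83 per FPKM against 22.7 to 24.4 in the others. *Ckb* and *Gatm* had a mean read depth of 18279 and 1128 in B2 all the same, and the part of depth in these gaps was not tested.

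**Figure D3:**
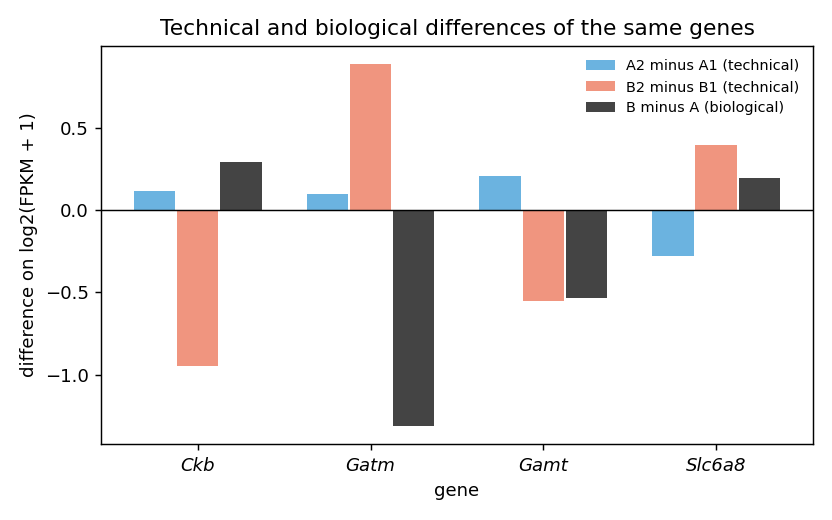
Differences on the log2(FPKM + 1) scale for the 4 creatine genes that averaged 1 FPKM or more: A2 minus A1 (blue) and B2 minus B1 (red) between technical libraries, and B minus A (black) between biological replicates. For *Ckb* the bar of B2 minus B1, at -0.95, is longer than that of B minus A, at 0.29, and for *Gatm* these bars point in opposite directions.

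Levels of cell type markers differed between the replicates as well, and their counts are to be read against the shares over all genes given above. All 11 listed markers of neural progenitors had at least 1 FPKM, and their summed FPKM was 21189 and 23242 in A1 and A2 and 10223 and 11031 in B1 and B2, with *Fabp7* and *Hes5* counted as lower in B. The sum is carried by its highest genes: *Fabp7* had 16800 and 18557 FPKM in A1 and A2 and 6520 and 5485 FPKM in B1 and B2, while *Vim* was highest in B2, at 4458 FPKM. Without these, the other 9 summed to 1507 and 1514 FPKM in A1 and A2 and 1052 and 1088 FPKM in B1 and B2. Of the 11 markers, 5 were lower in B without overlap, *Fabp7*, *Hes5*, *Sox2*, *Notch1* and *Hes1*, against 32.0% of all genes tested, and none was higher without overlap. The replicates overlapped for the other 6, of which *Vim*, *Nes*, *Slc1a3*, *Prom1* and *Msi1* had a positive log2 difference. The median log2 difference of the list was -0.32. All 10 mesenchymal and meningeal markers were also at this level. Their sum was 686 and 672 in A1 and A2 against 2648 and 3173 in B1 and B2, and 9 of the 10 were counted as higher in B. Among 8 astrocyte markers, *S100b* was counted as lower and *Glul* as higher in B, and their sum ranged from 1686 in B1 to 2033 in B2, but was lowest in B2, at 1130, without *Gfap*. Of 8 neuron markers tested, 5 were lower in B without overlap, against 32.0% of all genes tested, and none was counted, and the sum of the 10 listed ranged from 199 in B1 to 257 in A2. Oligodendrocyte lineage markers summed to 323 and 357 in A1 and A2, 771 in B1 and 418 in B2, so this list, like *Ckb*, was highest in B1, and *Pdgfra* was counted as higher in B. None of the 5 microglial and 5 endothelial markers reached a mean of 1 FPKM. In bulk RNA, fewer cells of a type and less RNA per cell cannot be told apart, and the part of these shifts in the difference of *Gatm* was not tested.

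Other genes of energy transfer and creatine precursors were set beside the creatine genes as lists. With 6.15% of all genes tested counted as differing, a list of 10 or fewer genes with none counted is near that background and is not shown to be stable. Adenylate kinases and nucleoside diphosphate kinases also pass phosphate between nucleotides. Of the 13 listed, the highest was *Nme2* at 655 ± 96.8 FPKM (SD, n = 2), followed by *Nme1* at 255, *Ak3* at 107 and *Nme3* at 94.4 FPKM. The summed FPKM of all 13 was 1072, 1234, 1229 and 1416 in A1, A2, B1 and B2. *Ckb* alone exceeded this sum in each library, by 2.72, 2.56, 4.20 and 1.89 times. None of the 10 kinases tested was counted as differing between A and B. Without overlap, 4 of them were higher in B and 1 was lower.

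Mitochondrial creatine kinase works beside the porins of the outer membrane and the adenine nucleotide translocators of the inner membrane. While *Ckmt1b* was below 1 FPKM, all 6 listed partners were well expressed, with a median of 277 FPKM. The translocators *Slc25a4* and *Slc25a5* had 647 ± 119 and 567 ± 55.7 FPKM, the phosphate carrier *Slc25a3* had 354 ± 19.7 and the porin *Vdac3* had 201 ± 2.08 (SD, n = 2). None of the 6 was counted as differing between the replicates. Without overlap, 4 of the 6 were higher in B, against 28.1% of all genes tested, and 1 was lower. Among 14 genes of ATP-using pumps, the sodium pump subunit *Atp1b2* had 438 ± 109 FPKM (SD, n = 2), and none of the 9 tested was counted. Of these 9, 2 were higher and 3 lower in B without overlap.

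Of the precursors of creatine, glycine was represented by enzymes at high levels and arginine by few. *Phgdh*, the first enzyme of the serine pathway that feeds glycine, had 696 ± 267 FPKM (SD, n = 2), and *Psat1*, the next enzyme, had 114 ± 13.8. *Gcsh*, a carrier protein of glycine cleavage, had 74.7 ± 5.78 FPKM. Of 10 genes tested on this list, 8 were lower in B without overlap, against 32.0% of all genes tested, and 1 of them, the glycine transporter *Slc6a9*, was counted as differing. It had 85.7 and 83.5 FPKM in A1 and A2 and 41.9 and 30.1 FPKM in B1 and B2, a log2 difference of -1.23. Without B2 this difference was -0.996, just under the size required. The median log2 difference of the list was -0.32, against -0.034 over all genes tested.

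On the list of arginine supply and fate, the arginine transporter *Slc7a1* had 1.08 ± 0.25 FPKM (SD, n = 2) and *Slc7a3* had 2.61 FPKM. *Asl*, which releases arginine from argininosuccinate, had 23.9 ± 0.149 FPKM, while *Ass1*, which makes argininosuccinate, had 1.06 ± 0.35 (SD, n = 2). Ornithine, the other product of the *Gatm* reaction, is used by the enzymes of *Odc1* and *Oat*, which had 145 ± 2.07 and 67.3 ± 9.01 FPKM (SD, n = 2). The methyl donor of the *Gamt* reaction is made by the enzyme of *Mat2a*, at 27.1 ± 7.27 FPKM, and its product is cleared by that of *Ahcy*, at 38.6 ± 7.79 FPKM (SD, n = 2). *Ahcyl1* at 88.5 and *Mat2b* at 21.9 FPKM were the others among the 4 highest on the methyl list. None of the 7 genes tested on either list was counted as differing. Without overlap, 5 of the 7 methyl genes were lower in B and 2 were higher. On the arginine list 2 were lower and 1 was higher.

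Relatives of the creatine transporter include carriers of GABA, betaine and taurine. *Slc6a13*, a GABA transporter, was counted as higher in B, with 9.74 and 8.29 FPKM in A1 and A2 and 16.3 and 44.1 FPKM in B1 and B2, a log2 difference of 1.48. Without B2 it was 0.79, below the size required. *Slc6a11* had 6.90 FPKM and *Slc16a12*, a further creatine carrier, had 2.60 ± 1.57 FPKM (SD, n = 2).

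**Figure D4:**
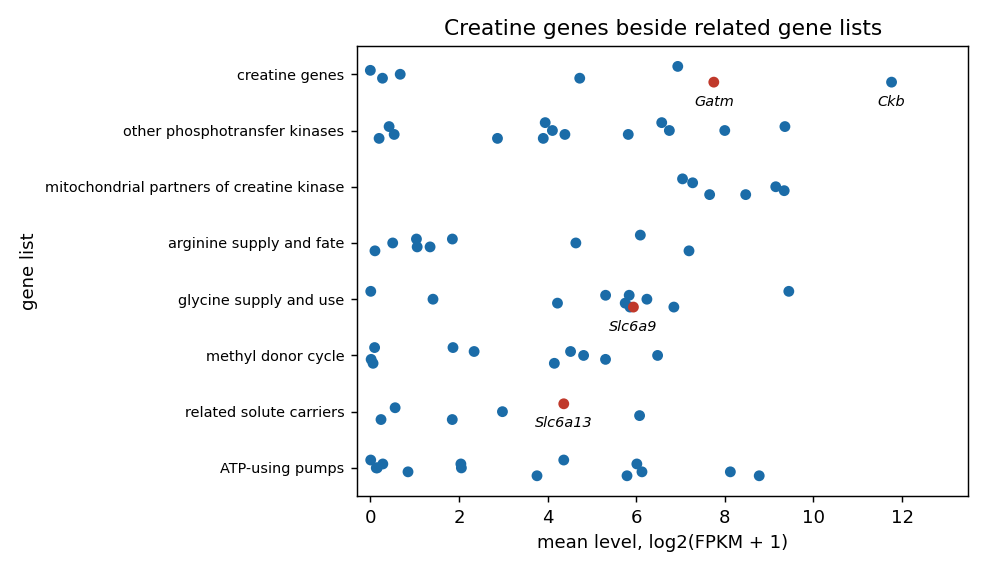
Mean level, as log2 of mean FPKM + 1, of the creatine genes and of each gene on the related lists (horizontal axis, 1 row of points for each list), with *Ckb* and the genes in red named. Red points mark genes that met the rule for a difference between the cultures, which are *Gatm*, *Slc6a9* and *Slc6a13*. *Ckb* lies to the right of every other gene shown.

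The profile over the 4 libraries was also compared with those of 6636 genes averaging 10 FPKM or more, by the distance between centred log2(FPKM + 1) values. With 4 libraries of 2 cultures this is a description of similar values. Nearest to *Ckb* were *Slc25a18*, which encodes a mitochondrial glutamate carrier, *Id1*, a bHLH inhibitor, and *Rgcc*, at distances of 0.11, 0.14 and 0.15. *Slc25a18* had 56.7, 60.7, 96.6 and 47.0 FPKM in A1, A2, B1 and B2, with the same high value in B1. Nearest to *Gatm* were *Plat*, which encodes tissue plasminogen activator, *Igfbpl1* and *Atxn1*, at 0.13, 0.19 and 0.19. *Plat* had 411, 453, 116 and 217 FPKM, lowest in B1 as *Gatm* was.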

How the data were processed

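PolyA RNA-seq of 4 libraries was used. The authors aligned reads to rn6 with STAR and deposited coverage, FPKM and TPM per reference gene for each library in the layout of StringTie, without pooling. The authors' methods name Rsubread and DESeq2 for FPKM, so the tool behind the values is not certain. Tool versions are not given in the sources used here. The deposited FPKM and TPM values were used unchanged. The deposited coverage signal is the mean read depth over a gene and is not scaled for library depth; read totals were not used. FPKM was summed over rows of 1 gene name, although each creatine gene has 1 row and overlaps no other listed gene. Technical libraries were averaged within a replicate, on the log2(FPKM + 1) scale for differences. Genes averaging 1 FPKM or more were compared, and no p-value was computed. The rule for differing genes was tested on simulated data. The outcome is not reported here and is not used as evidence for the genes counted. The creatine genes and the other lists were chosen with earlier results of these data known. Named from the pathway lists are up to 4 genes with the highest mean and every gene counted as differing, and nearest to *Ckb* and *Gatm* the 3 genes with the smallest distance. *Slc7a1* and *Ass1* were added for their role after their values were seen, and some list genes are not reported here. *Ckmt1b* was matched to RefSeq *Ckmt1* for its sequence, and coordinates of genes are those of rn6 in the tables while those of promoter windows are of GRCr8. Alternatives were TPM, scaling of libraries, other thresholds and pseudocounts, and each library left out. Python 3.11.15 with pandas 2.3.3, numpy 2.4.6 and matplotlib 3.10.9 was used.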

Additional observations from a re-analysis of the deposited data

Results flagged for a closer look

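Over the 4 libraries, 9 quantities were examined for 1 library that stood apart: the distance from it to the next library was divided by the full range. Chance gives about 1 in 20 such cases for independent samples, which these technical pairs are not. There were 2. The ratio of *Gatm* to *Gamt* was 0.743 in B1, against 2.04 to 2.20 in the other libraries. The coverage per FPKM was 6.83 in B2, against 22.7 to 24.4. The FPKM of *Ckb* in B1 came close to the limit, with a gap of 0.805 of the range.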

How the results depend on the processing

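Of 138 alternative values for 16 results, 8 moved past the spread used or, if counts, past 1.5 times, and the differences of *Gatm*, *Slc6a9* and *Slc6a13* kept their sign in each. In TPM the mean level was 5809 for *Ckb* and 363 for *Gatm*, as the unit differs. With 1 library left out, the number of creatine genes differing between A and B ranged from 0 (without B1) to 1. For 36 of the values, levels of single replicates and log2 differences with 1 library left out, the spread used could not be passed by construction, so they say nothing of stability. With 1 library left out, the log2 difference of *Gatm* ranged from -1.75 to -0.87, and those of *Gatm* without B1 and of *Slc6a9* and *Slc6a13* without B2 were below the size required. With the minimum at 0.1 FPKM, 6 creatine genes were counted in place of 4. The number of all genes tested that were counted as differing was 329 with the minimum at 10 FPKM and 1732 with a log2 difference of 0.58 required, against 645, and 650 with technical libraries averaged before the log, an alternative chosen after seeing the data, as was the choice between these orders of averaging. No paired analysis was possible because the libraries form 1 condition. Depth limits *Ckm*, *Ckmt1b* and *Ckmt2* most, and B2 more than the others.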
